A study of Rattus norvegicus with 8 samples.

Results

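The histamine and serotonin signalling genes described here are a list of 10: the histamine-forming enzyme Hdc, the histamine receptors Hrh1 and Hrh3, the histamine-inactivating enzyme Hnmt, the serotonin receptors Htr1a, Htr2a, Htr2c, Htr4 and Htr7, and the amine-degrading enzyme Maoa. A gene was found where its symbol was written against a polyadenylation site, the place where a transcript is cut and given its poly(A) tail. Of the 10 genes, 9 had at least 1 site and Htr7 had no row, so it was not analysed here. The 9 genes held 54 of the 98356 sites and were 9 of 18003 gene symbols, and all 9 had a mean total of at least 10 normalized counts. RNA came from the mediobasal hypothalamus of adult male Long-Evans rats. In the cannabis group (4 rats, replicates 1, 2, 3 and 5), vaporized cannabis plant matter was given for 10 min, and in the air control group (4 rats, replicates 1 to 4) the same apparatus ran with its vaporizer empty. All rats had fed freely, all lost access to food for 1 hr, and tissue was taken 1 hr after exposure.

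Histamine in the brain is made by neurons of the tuberomammillary nucleus in the posterior hypothalamus, which project widely and are active during waking. Histamine restrains feeding through the receptor encoded by Hrh1, while the receptor encoded by Hrh3 sits largely on the histamine neurons and other terminals and limits transmitter release. Serotonin reaches the hypothalamus from the raphe nuclei of the brainstem, where its neurons lie, and acts on hypothalamic cells that carry the receptors. The receptor encoded by Htr2c, carried by the hypothalamic neurons that make proopiomelanocortin among others, is known for its part in satiety.

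The values are normalized counts: the reads of a site divided by the size factor of its library. At the sites kept by the authors, libraries held 1159811 (air control replicate 4) to 3706778 reads (cannabis replicate 2), which is less than was sequenced. Thus 1 read was worth 0.664 to 1.99 normalized counts and 3 reads, taken as the floor of detection, 1.99 to 5.96. Air control replicate 4 had no read at 26.1% of sites, against 3.32 to 17.0% in the other 7 libraries. Hypothalamic markers were present (12 of 13 listed genes, Npy having no row). Their summed total was 3330.3 to 5663.3 in air controls and 7531.0 to 9559.4 with cannabis. Avp had the largest part in it, with means of 1950 and 4930, and Oxt had means of 596 and 1190. Avp and Oxt were higher with cannabis at P under 0.01, and the other 10 markers with a site did not pass that threshold. Of the 12 log2 fold changes 11 were above 0, with a median of 0.45 beside 0.053 over all gene totals. The reason was not tested. Of 6 midbrain dopamine markers with a site, 3 were lower with cannabis at P under 0.01, beside 0.178% of all gene totals, as given with Ddc. A gene total is the sum over all sites of the gene. Reads are taken from the 3′ ends of transcripts, so totals were set side by side between genes without correction for transcript length. Whether every site is a transcript end was not checked, which limits comparisons between genes.

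No total of the 9 genes differed between cannabis and air control beyond the spread between rats. In limma on log2(total + 1), 0 of 9 totals had P under 0.01 and 0 had P under 0.05. Over all 18003 gene totals, 50 had P under 0.01 (0.278%), 2.41% had P under 0.05, and 1 had an adjusted P under 0.1 (0.00555%). The adjusted P was 0.999 for each of the 9 genes. With count models on the reads, edgeR and DESeq2 each gave 0 of 9 at P under 0.01 and 1 of 9, Hrh1, at P under 0.05, beside 2.52% of all gene totals in edgeR and 2.18% in DESeq2. The 2 groups overlapped in all 9 genes, against 1.98% of all gene totals whose groups did not overlap. Of the 9 log2 fold changes, 8 were above 0 and 1 was below it, with a median of 0.15 beside 0.053 over all genes. The split depended on the scaling for the genes near 0. It was 6 above and 3 below with equal library totals and with edgeR, where Hdc and Maoa lay below 0, and 5 above and 4 below with DESeq2, where Htr4 did so too. In the exact permutation test of 4 against 4 rats, used for single genes, the smallest two-sided P is 0.0286.

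**Figure D1:**
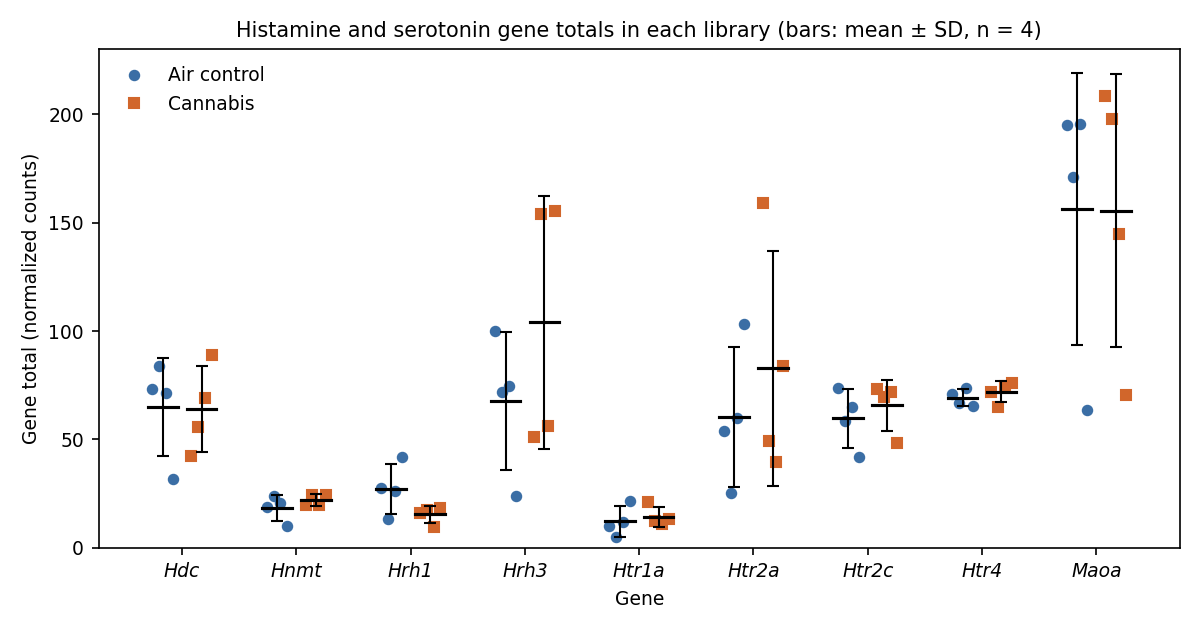
Gene total (y axis, normalized counts, linear from 0) of the 9 genes (x axis) in each library, air controls as blue circles and cannabis as orange squares, with bars for mean ± SD (n = 4). The groups overlap in every gene, Htr4 is packed between 65.1 and 76.0, and Hrh3, Htr2a and Maoa spread widely within each group.

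Hdc encodes histidine decarboxylase, which makes histamine from histidine. Its total was 73.1, 83.8, 71.2 and 31.8 normalized counts in air control replicates 1 to 4 and 42.2, 55.8, 68.9 and 89.1 in cannabis replicates 1, 2, 3 and 5. The lowest library was a control and the highest a cannabis library. The means were 65.0 ± 22.8 and 64.0 ± 20 (SD, n = 4), and the log2 fold change was 0.014 (SE 0.34, 95% interval -0.71 to 0.74, P = 0.967 in limma, exact permutation P = 0.971). An interval of this width holds folds from 0.612 to 1.67. The value of 31.8 rested on 16 reads, and without that library the log2 fold change was -0.29. The log2 fold change was also below 0 with values scaled to equal library totals (-0.0061), with edgeR (-0.083) and with DESeq2 (-0.087). In bulk tissue, fewer cells of a type and less RNA per cell cannot be told apart.

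The list of tuberomammillary histamine neuron markers, which holds Hdc and Hrh3 themselves, had all 7 genes present and 0 with P under 0.01. Its summed total was 276.0 to 485.4 in air controls and 322.9 to 512.3 with cannabis. Mast cells also make histamine, and of 8 mast cell markers 3 had a site (Cpa3, Kit and Ms4a2) and none of the tryptase and chymase genes did. The summed mast cell total was 9.9 to 29.9 in air controls and 12.0 to 27.3 with cannabis, with 0 called.

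Hnmt encodes histamine N-methyltransferase, the main route by which the brain inactivates histamine. The gene was read at 19.0, 23.9, 20.8 and 9.9 normalized counts in air controls and 19.9, 24.6, 19.7 and 24.6 with cannabis. The cannabis libraries lay close together, and 3 of 4 controls lay within or beside them. The log2 fold change was 0.31 (SE 0.34, 95% interval -0.43 to 1.05, P = 0.379, exact permutation P = 0.343). The low control, again replicate 4, rested on 5 reads, and without it the log2 fold change was 0.057. The variance within groups was 0.747 times that expected from read counting alone (1 would be counting error and nothing else).

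Maoa encodes monoamine oxidase A, a mitochondrial enzyme that oxidizes serotonin, noradrenaline and dopamine. It had the highest mean level of the 9 genes, 156, above 86.4% of all gene totals. The values were 195.2, 171.2, 195.4 and 63.6 in air controls and 208.6, 198.0, 144.7 and 70.7 with cannabis. Each group held 1 library far below its other 3, air control replicate 4 and cannabis replicate 5. The means were 156 ± 62.9 and 155 ± 63.1 (SD, n = 4), with a log2 fold change of 0.0059 (SE 0.4, 95% interval -0.85 to 0.86, P = 0.988, exact permutation P = 1.0). The variance within groups was 22.9 times that of read counting. Without air control replicate 4 the log2 fold change was -0.38, and on all libraries it was -0.015 with equal library totals, -0.07 with edgeR and -0.057 with DESeq2.

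Hrh1 encodes the excitatory histamine receptor that antihistamines block, and it alone of the 9 genes had a log2 fold change below 0 in limma on the deposited values. The total was 27.8, 13.2, 26.2 and 41.7 normalized counts in air controls and 16.1, 17.3, 9.8 and 18.4 with cannabis. Of the 4 controls, 3 lay above every cannabis library, and air control replicate 2, at 11 reads, lay below 3 of the 4. The means were 27.2 ± 11.7 and 15.4 ± 3.84 (SD, n = 4), a log2 fold change of -0.71 (SE 0.39, 95% interval -1.54 to 0.12). The limma P was 0.0875 and the exact permutation P 0.114. On the 182 reads of the gene, edgeR gave a log2 fold change of -0.84 (P = 0.0459) and DESeq2 -0.85 (P = 0.0435), both below the exact permutation P. Leaving out single libraries moved the limma value between -1.01 (without air control replicate 2) and -0.48 (without air control replicate 4). The direction held in each of these fits, and none passed P under 0.01.

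Hrh3 encodes the autoreceptor and heteroreceptor that lowers histamine synthesis and transmitter release. Its 1 site gave 100.2, 71.8, 74.5 and 23.8 in air controls and 50.9, 154.1, 56.1 and 155.2 with cannabis. Cannabis replicates 2 and 5 stood above all controls, while cannabis replicates 1 and 3 stood below 3 of the 4 controls. The means were 67.6 ± 31.8 and 104 ± 58.4 (SD, n = 4), and the log2 fold change was 0.59 (SE 0.47, 95% interval -0.41 to 1.6, P = 0.224, exact permutation P = 0.314). The variance within groups was 21.1 times that of counting. Without air control replicate 4, which held 12 reads, the log2 fold change was 0.16.

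Htr1a encodes an inhibitory serotonin receptor found both on serotonin neurons and on their targets. It was the least read of the 9 genes, at 10.2, 4.8, 12.1 and 21.8 in air controls and 21.1, 12.6, 10.8 and 13.1 with cannabis. The controls spanned the whole cannabis range, and 111 reads in all, 4 of them in air control replicate 2, made up the record. The log2 fold change was 0.34 (SE 0.45, 95% interval -0.62 to 1.3, P = 0.458, exact permutation P = 0.6), and -0.0017 without air control replicate 2.

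Htr2a encodes the excitatory receptor through which the classical psychedelics act. The total was 54.1, 25.1, 59.8 and 103.3 in air controls and 159.0, 49.2, 39.4 and 83.7 with cannabis. Both the lowest and the second highest library were controls, and cannabis replicate 1 was the highest. The log2 fold change was 0.4 (SE 0.46, 95% interval -0.59 to 1.38, P = 0.4, exact permutation P = 0.571), with a variance within groups 23.5 times that of counting. It ranged from 0.016 to 0.71 as single libraries were left out.

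Htr2c gave 73.8, 58.7, 65.1 and 41.7 normalized counts in air controls and 73.3, 69.7, 71.8 and 48.4 with cannabis. The highest and the lowest library were both controls. The means were 59.8 ± 13.6 and 65.8 ± 11.7 (SD, n = 4), with a log2 fold change of 0.15 (SE 0.26, 95% interval -0.42 to 0.71, P = 0.587, exact permutation P = 0.543). The interval holds folds from 0.748 to 1.64. Htr2c is also abundant in the choroid plexus, the tissue lining the ventricles, whose marker Ttr was at 0.0 to 9.6 in air controls and 0.0 to 10.8 with cannabis. Of the other choroid plexus markers, Folr1 was at 0.0 to 14.1 and 3.7 to 17.9, and Kl, Aqp1 and Otx2 had no row. Summed over the 3 genes with a site, Htr2c among them, the list was at 41.7 to 84.1 in air controls and 62.2 to 98.3 with cannabis, with 0 called.

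Htr4 encodes a receptor that raises cyclic AMP, and it was the steadiest of the 9 genes. Its total was 70.9, 67.0, 73.9 and 65.5 in air controls and 72.0, 65.1, 74.8 and 76.0 with cannabis. The 8 libraries thus lay within 65.1 to 76.0, although their depth differed by far more. The means were 69.3 ± 3.77 and 72.0 ± 4.89 (SD, n = 4), and the log2 fold change was 0.052 (SE 0.21, 95% interval -0.41 to 0.51, P = 0.81, exact permutation P = 0.371). The interval, which limma widens with the spread of other genes at this level, leaves folds from 0.753 to 1.43 open. The log2 SD was 0.08 in air controls and 0.1 with cannabis, against 0.89 and 0.88 for Hrh3. The variance within groups was 0.325 times that of counting, so the libraries lay closer together than counting error alone gives on average. Whether the gene itself is that steady was not tested.

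Levels ran in the order Maoa (mean 156 normalized counts over 8 libraries), Hrh3 (85.8), Htr2a (71.7), Htr4 (70.7), Hdc (64.5), Htr2c (62.8), Hrh1 (21.3), Hnmt (20.3) and Htr1a (13.3). Neighbours in this order were compared within libraries with an exact two-sided sign-flip permutation test, 8 comparisons in all. Maoa was above Hrh3 in 7 of 8 libraries (exact P = 0.0312, adjusted P = 0.125), and Htr2c was above Hrh1 in 7 of 8 libraries (exact P = 0.0156, adjusted P = 0.125). The other 6 pairs of neighbours had P from 0.109 to 0.992. By mean alone the set lay in 3 tiers, Maoa, the 5 genes from 62.8 to 85.8 and the 3 genes from 13.3 to 21.3. No neighbouring step passed the adjusted threshold, and the order tested was drawn from the same 8 libraries.

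The extremes were not spread evenly over libraries. Air control replicate 4, the shallowest, gave the lowest total of 5 genes (Hdc, Hrh3, Hnmt, Htr2c and Maoa) and the highest of 2 (Hrh1 and Htr1a). Cannabis replicate 5 gave the highest total of Hdc, Hrh3 and Htr4. Without air control replicate 4 the log2 fold changes of Hdc (-0.29), Htr2c (-0.014) and Maoa (-0.38) lay below 0 and the largest, that of Htr2a, was 0.71. The part of depth in these values was not tested.

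**Figure D2:**
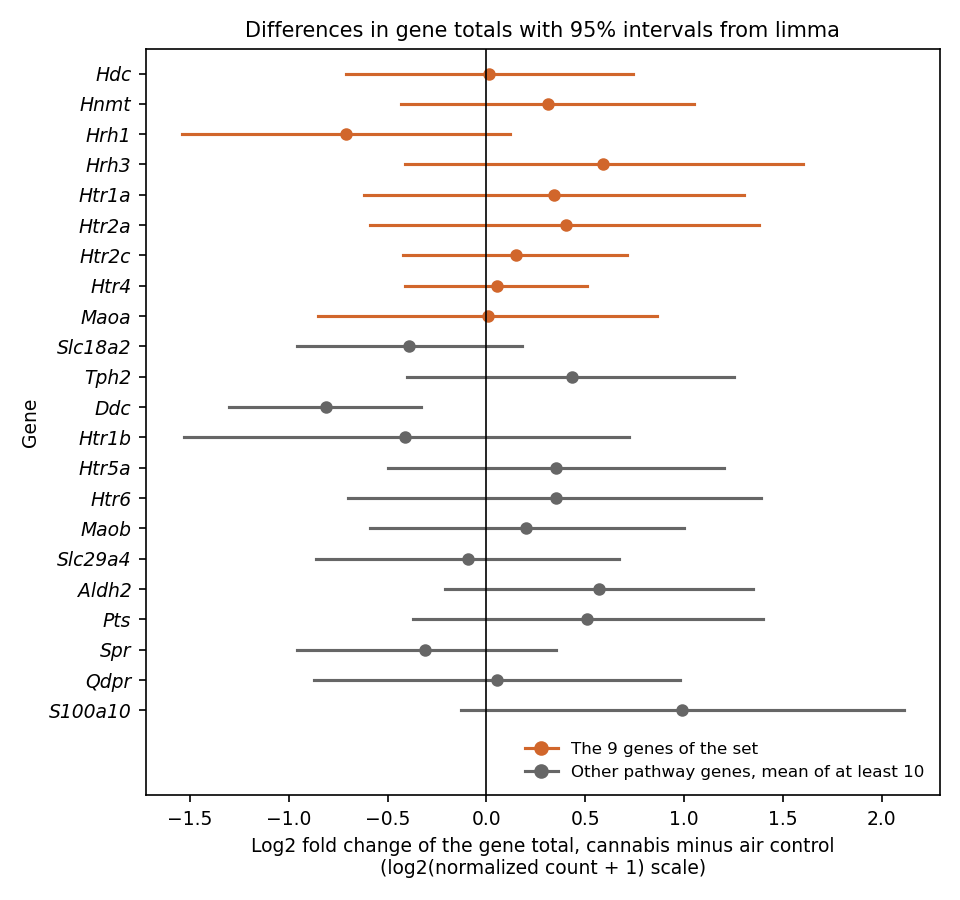
Log2 fold change of the gene total (x axis, cannabis minus air control, on the log2(normalized count + 1) scale) with 95% limma intervals for the 9 genes in orange and the other pathway genes with a mean of at least 10 in grey (y axis, n = 4 per group). All 9 orange intervals cross 0, and of the grey ones only that of Ddc, at -0.81, does not.

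The 54 sites were spread unevenly over the genes. Sites are numbered within a gene from the most to the least read over all 8 libraries. Hrh3, Htr1a and Htr2a had 1 site each, Hdc 2, Maoa 4, Hrh1 5, Hnmt 6, Htr4 14 and Htr2c 20. The sites are clusters of read ends after filtering, and whether each lies at an annotated transcript end was not analysed here.

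Reads of Hdc and Maoa fell mostly at 1 site. Site 1 of Hdc held 94.9% of its mean total, at 61.7 ± 23.0 normalized counts in air controls and 60.7 ± 21.4 with cannabis (SD, n = 4), while site 2 had a mean of 3.29. Site 1 of Maoa held 77.4%, at 123 ± 54.2 and 119 ± 58.2, and site 2 followed at 29.5 ± 8.94 and 29.9 ± 9.39. The log2 fold changes of these 3 sites were 0.01, -0.04 and 0.015, with P from 0.93 to 0.981. Across the 5080 genes with at least 2 sites and a mean total of at least 50, the median share of the most-read site was 73.2%.

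Reads of Htr2c and Htr4 were spread over many sites of low level. None of the 20 sites of Htr2c reached a mean of 10 normalized counts. Site 1 of Htr2c had a mean of 5.83 and held 9.27% of the total, and 18 of the 5080 genes (0.354%) had a lower share. In single libraries 10 to 20 of the 20 sites had a read, fewest in air control replicate 4. Site 1 of Htr2c gave 0.7, 8.4, 4.7 and 2.0 in air controls and 12.4, 10, 6.9 and 1.5 with cannabis, with overlapping groups (log2 fold change 0.85, SE 0.64, P = 0.198, exact permutation P = 0.257). Site 1 of Htr4 had a mean of 16.2 and held 22.9%, a share that 4.86% of the 5080 genes fell below. It gave 21.2, 16.8, 17.5 and 11.9 in air controls and 14.9, 14.6, 14.8 and 17.7 with cannabis (log2 fold change -0.091, SE 0.43, P = 0.835, exact permutation P = 0.629). The steady total of Htr4 was thus the sum of 14 sites whose own log2 fold changes ran from -0.95 to 0.71.

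**Figure D3:**
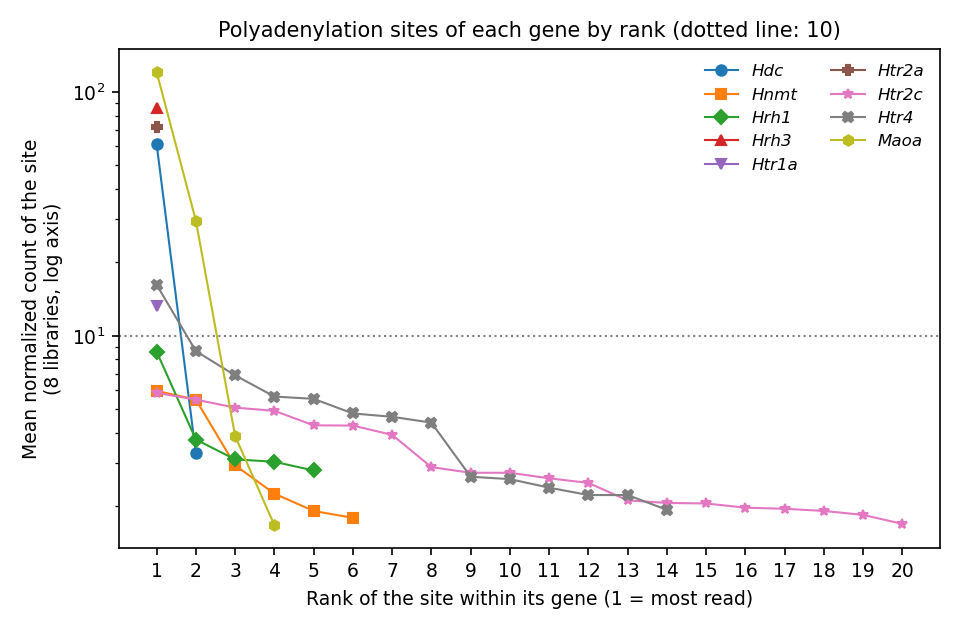
Mean normalized count over 8 libraries (y axis, log scale) of each site by its rank within the gene (x axis, 1 = most read), 1 line per gene and a dotted line at 10. Maoa and Hdc fall steeply after site 1, while Htr2c descends slowly from 5.83 over 20 sites, all below the dotted line.

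No site of the set differed between groups past the thresholds. Of 54 sites, 0 had P under 0.01 in limma and 1 had P under 0.05, beside 375 of all 98356 sites with P under 0.01 (0.381%), 3.03% with P under 0.05 and 1 with an adjusted P under 0.1 (0.00102%). With edgeR and with DESeq2, too, 0 of 54 had P under 0.01 and 1 had P under 0.05, against 2.91% and 1.86% of all sites. The share of these sites under 0.05 was thus near or below that of all sites. In all 3 tests that site was site 3 of Hrh1, named here after its values were seen. The groups did not overlap in 0 of 54 sites, against 2.0% of all sites. Of the 54 log2 fold changes, 27 were above 0 and 27 below.

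The 5 sites of Hrh1 all had log2 fold changes below 0, from -1.62 to -0.16. Site 3 gave 6.6, 0.0, 5.4 and 9.9 normalized counts in air controls and 0.0, 2.0, 1.0 and 0.0 with cannabis, on 26 reads in all. The means were 5.47 ± 4.13 and 0.744 ± 0.953 (SD, n = 4), with P = 0.0409 in limma, 0.0205 in edgeR and 0.0263 in DESeq2, and an exact permutation P of 0.143. The 1 control without a read, replicate 2, decided the limma value: without it P was 0.00209, and with any other control left out P was 0.0942 to 0.148. Site 1 of Hrh1, the most read, had means of 11.1 ± 6.33 and 6.15 ± 3.09 and a log2 fold change of -0.74 (SE 0.55, P = 0.191, exact permutation P = 0.229). Site 1 of Hnmt had means of 5.72 ± 2.84 and 6.16 ± 3.06, a log2 fold change of 0.13 (SE 0.55, P = 0.811, exact permutation P = 0.886).

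No difference in the use of sites within a gene passed the test. The share of the most-read site was tested in the 6 genes with at least 2 sites, by exact two-sided permutation. For Hdc it was 94.0 ± 4.52% in air controls and 93.8 ± 6.28% with cannabis. For Maoa it was 76.5 ± 7.75% and 74.2 ± 8.75%, and for Hrh1 39.2 ± 5.64% and 37.7 ± 13.5%. Htr2c had the largest difference, 6.81 ± 5.6% against 11.0 ± 6.04%, 4.19 percentage points (exact P = 0.343). P ranged from 0.343 to 0.943, with an adjusted P of 0.943 in all 6.

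The other genes of both pathways were a list of 31 synthesis, transport, receptor, breakdown and cofactor genes. Of these, 21 had a site and 13 had a mean total of at least 10 normalized counts. The serotonin transporter Slc6a4 and the serotonin neuron transcription factor Fev had no row, nor did Hrh2, Hrh4, Aoc1, Htr1f, Htr2b, Htr3b, Htr5b or Slc22a3. In limma 0 of 21 were higher and 1, Ddc, was lower at P under 0.01, beside 0.178% of all gene totals lower at that threshold. None passed an adjusted P under 0.1. Log2 fold changes were above 0 in 11 and below 0 in 10, with a median of 0.055.

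Ddc encodes aromatic amino acid decarboxylase, which makes serotonin and dopamine from their precursors and is shared by both kinds of neuron. Its total was 150.6, 119.7, 165.2 and 160.9 normalized counts in air controls and 90.7, 106.9, 70.8 and 71.4 with cannabis. Every control lay above every cannabis library, as in 0.783% of all gene totals. The means were 149 ± 20.5 and 85.0 ± 17.3 (SD, n = 4), a log2 fold change of -0.81 (SE 0.23, 95% interval -1.3 to -0.33, P = 0.00311, adjusted P = 0.999, exact permutation P = 0.0286, the smallest possible). On reads, the adjusted P was 1.0 in edgeR and 0.559 in DESeq2, both with P under 0.01 before adjustment. The 2 main sites of Ddc, which are parts of this total, both had lower means with cannabis, 92.5 against 50.4 at site 1 and 48.3 against 28.5 at site 2. The groups overlapped at both sites, and neither had P under 0.01. Limma P was 0.0376 at site 1 and 0.0951 at site 2, and exact permutation P was 0.0571 and 0.143. Leaving out air control replicate 3, cannabis replicate 3 or cannabis replicate 5 gave limma P of 0.0118, 0.0111 and 0.0109, which miss the threshold of 0.01.

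Of the genes listed as midbrain dopamine neuron markers, 3 differed between the same libraries. The paper also discusses dopamine neurons in the arcuate nucleus of the hypothalamus. The name of the list therefore does not fix the source of these transcripts, which was not tested. The dopamine transporter Slc6a3 was at 237.0 to 320.9 in air controls and 12.6 to 59.9 with cannabis, a log2 fold change of -3.3 and the 1 gene total with an adjusted P under 0.1 (0.0218). Th, the first enzyme of dopamine synthesis, was at 305 ± 46.6 and 117 ± 42.9 (SD, n = 4, limma P = 9.28e-05, exact permutation P = 0.0286). The midbrain transcription factor En1 was at 31.9 ± 12.3 and 3.81 ± 1.0 (limma P = 1.19e-05, exact permutation P = 0.0286). Of the 8 midbrain dopamine markers 6 had a site, En2 and Foxa2 having none, 3 were lower at P under 0.01, and the sum of all 6 was 614.1 to 815.8 in air controls and 139.1 to 266.5 with cannabis. The other 3 did not pass and their groups overlapped, with log2 fold changes of -0.65 for Aldh1a1, -1.21 for Pitx3 and 0.75 for Foxa1. Their part in the Ddc result was not tested. Of the 5 raphe serotonin neuron markers 3 had a site and 1, Ddc, was called. Their sum was 234.6 to 287.4 in air controls and 157.7 to 203.9 with cannabis. That sum holds Ddc and Slc18a2, which dopamine neurons also use. The mean of Slc18a2 was 98.7 in air controls and 75.4 with cannabis. Tph2, the third marker, went the other way, with means of 12.9 and 16.4.

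**Figure D4:**
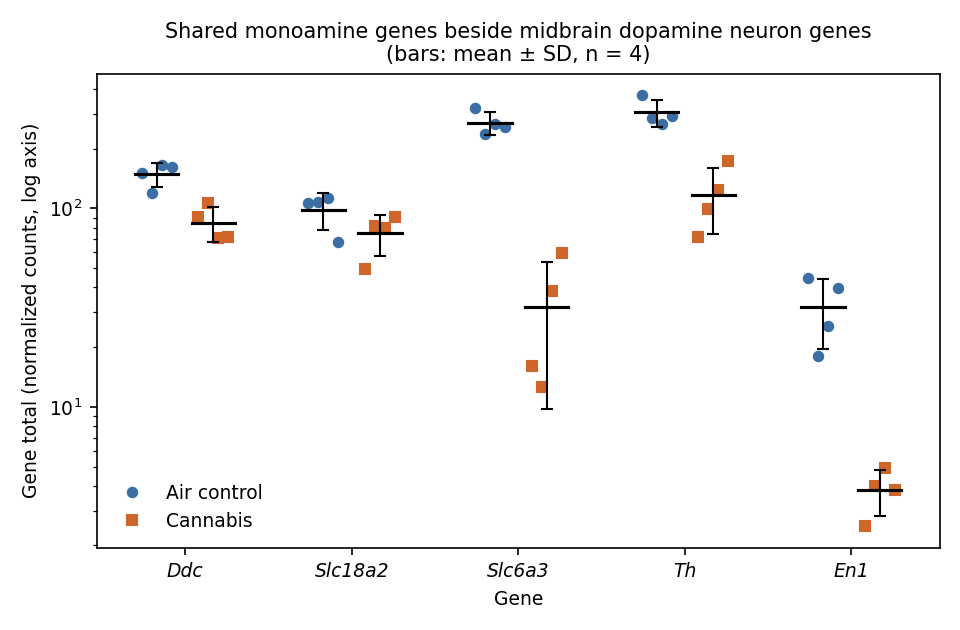
Gene total (y axis, normalized counts, log scale) of Ddc and Slc18a2, used by several kinds of monoamine neuron, beside Slc6a3, Th and En1 from the list of midbrain dopamine neuron markers (x axis), in each library with bars for mean ± SD (n = 4). Air controls (blue circles) lie above cannabis (orange squares) without overlap in Ddc, Slc6a3, Th and En1, and the groups overlap in Slc18a2.

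Neither Tph2 nor Slc18a2 passed the test. Tph2, the neuronal tryptophan hydroxylase that makes the serotonin precursor, was at 19.7, 7.2, 8.7 and 15.9 normalized counts in air controls and 17.4, 15.3, 16.7 and 16.1 with cannabis. The cannabis libraries lay inside the range of the controls (log2 fold change 0.43, SE 0.38, P = 0.285, exact permutation P = 0.343). Slc18a2, the vesicular transporter that loads histamine, serotonin and dopamine, was at 106, 107.7, 113.5 and 67.5 in air controls and 49.7, 81.7, 79.7 and 90.6 with cannabis. Of the 4 controls 3 lay above all cannabis libraries and replicate 4 lay below 3 of them (log2 fold change -0.39, SE 0.27, P = 0.165, exact permutation P = 0.114).

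Among the other serotonin receptors, Htr1b had means of 20.3 ± 6.77 in air controls and 19.4 ± 18.2 with cannabis, its cannabis values running from 5.4 to 45.9. Htr5a had 19.9 ± 9.56 and 23.5 ± 3.76, and Htr6 had 12.5 ± 6.48 and 14.7 ± 4.69 (SD, n = 4). S100a10, an annexin partner that binds some serotonin receptors, had 21.4 ± 13.1 and 35.3 ± 8.09, a log2 fold change of 0.99 (SE 0.52, P = 0.0793, exact permutation P = 0.114). Without air control replicate 4 the log2 fold change of S100a10 was 0.37. None of the 4 passed the test.

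Of the genes of breakdown and uptake, Maob, the companion oxidase of Maoa, was at 24.5 ± 6.55 in air controls and 29.8 ± 11.9 with cannabis. Aldh2, which clears the aldehydes that these oxidases leave, was at 94.9 ± 48.7 and 132 ± 41.2 (log2 fold change 0.57, P = 0.14, exact permutation P = 0.314). Slc29a4, a low-affinity monoamine transporter, was at 34.4 ± 9.01 and 33.9 ± 15.3. The genes for making and recycling tetrahydrobiopterin, the cofactor of tryptophan hydroxylase, were Pts at 11.1 ± 4.21 and 16.2 ± 5.98, Spr at 122 ± 22.3 and 105 ± 43.7 and Qdpr at 592 ± 281 and 571 ± 236. None of these 6 passed the test, with P from 0.14 to 0.9.

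The remaining 8 genes with a site had means under 10. One of them, Asmt, the last enzyme of melatonin synthesis from serotonin, is named here after its values were seen. It was at 5.1, 3.6, 2.0 and 2.0 in air controls and 6.2, 7.3, 13.8 and 6.9 with cannabis, on 53 reads in all. Air control replicates 1 to 4 held 7, 3, 3 and 1 of these reads, so most controls were at or below the floor of 3 reads. With single libraries left out, limma P for Asmt ranged from 0.0169 to 0.0851. Every cannabis library lay above every control, as in 1.19% of all gene totals, with a log2 fold change of 1.2 (SE 0.47, P = 0.0236, adjusted P = 0.999, exact permutation P = 0.0286).

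The genes most like Hdc and Htr2c over the 8 libraries were found among 6103 genes with a mean total of at least 50. For Hdc these were Capn2 (Pearson r 0.96), Desi2 (0.95), Kcnip1 (0.95), Tspan17 (0.95) and Pcbd1 (0.94), with Spearman rho from 0.79 to 0.98. Without the 2 libraries farthest from the median of Hdc, air control replicate 4 and cannabis replicate 1, r was 0.64 to 0.77. For Htr2c they were Parp1 (0.93), Fzd2 (0.92), LOC102548200 (0.92), Maoa (0.92) and Tspan15 (0.91), with rho from 0.67 to 0.86. Without air control replicate 4 and cannabis replicate 5, r was 0.18 for Maoa, 0.26 for Tspan15, 0.46 for Fzd2, 0.77 for LOC102548200 and 0.80 for Parp1. The likeness of Htr2c and Maoa thus rested on the 2 libraries in which both were low. These values describe 8 libraries that share their depth and size factors across genes. They were picked as the highest of 6103 correlations for each gene, so a high r follows from the choice.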

How the data were processed

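WTTS-Seq, which reads transcripts from their 3′ ends, was run on hypothalamic RNA of 8 rats, 4 per group. Quality filtering used the FASTX Toolkit, after which the authors removed leading Ts, kept reads of at least 16 nt, mapped them to Rnor_6.0 with TMAP on Ion PGM data, clustered ends within 24 nt, kept sites with at least 16 reads and named genes with Cuffcompare. The deposited values are a signal, reads divided by a size factor. All values came out as whole multiples of 1 read (100% within 0.001 reads), so reads were recovered. A symbol was given at 64313 of 98356 sites.

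Groups and replicate numbers come from the sample titles. The members and gene lists were chosen with earlier results of these data known. The 8 libraries were joined by row. Gene totals and sites were fitted across all features in limma 3.58.1 (R 4.3.3, trend, log2(value + 1)), cannabis against air control, with Benjamini-Hochberg adjustment, and thresholds of P under 0.01 and adjusted P under 0.1. Exact two-sided permutation tests compared single values. Spearman correlations used scipy 1.17.1. Other settings tried were a replicate block, pseudocounts of 0.5 and 5, a minimum mean of 10, equal library totals, edgeR 4.0.16 (TMM, quasi-likelihood) and DESeq2 1.42.0 on recovered reads, and leaving out each library. The limma fit, and no other step, was tested on simulated data, with changes placed in well-read features only. Named were all members, their most-read sites and those with a mean of at least 10 or P under 0.01, other pathway genes with a mean of at least 10 or P under 0.01, and the 5 genes most correlated with Hdc and with Htr2c. P-values and limma intervals measure the spread between these rats. The floor of 3 reads covers counting error only.

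Markers of 10 cell types or regions were checked. Besides those in the report, mammillary body (5 genes, summed total 167.4 to 240.3 in air controls and 168.9 to 212.0 with cannabis), thalamus (4 genes, 190.8 to 207.1 and 225.0 to 245.8), astrocytes (4 genes, 2625.4 to 3497.4 and 2738.2 to 4297.9) and neurons (4 genes, 2159.6 to 2437.2 and 2181.6 to 2570.7) had 0 genes with P under 0.01. Among these only the thalamus sums did not overlap between groups, being higher with cannabis, and the reason was not tested. Same-numbered rats did not deviate together in each pair (correlations of deviations from group means -0.271, 0.134 and -0.101 for replicates 1, 2 and 3), so the numbers were not taken as pairs. Site positions were not used here.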

Additional observations from a re-analysis of the deposited data

Results flagged for a closer look

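Of 58 groups of 4 values examined (gene totals, named sites and other named pathway genes), 4 held a library far from the other 3, with a gap to the nearest over Dixon's 95% limit. Chance alone flags about 1 group in 20, which is 2.9 of 58. The total of Htr2c in cannabis replicate 5 was 48.4 normalized counts, against 69.7 to 73.3 in the other 3 cannabis libraries. Site 1 of Htr4 in the same library was 17.7, against 14.6 to 14.9. Site 1 of Maoa in air control replicate 4 was 41.7, against 143.7 to 154.2 in the other 3 controls. The total of Slc18a2 in air control replicate 4 was 67.5, against 106 to 113.5.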

How the results depend on the processing

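The count of the 9 gene totals with P under 0.01 was 0 in all alternatives run. The count of member sites with P under 0.01 was 0 except without air control replicate 2, where it was 1 (range 0 to 1 over the libraries left out). The count of other pathway genes was 1, Ddc, and 0 with the replicate block (log2 fold change -0.7) and without air control replicate 3, cannabis replicate 3 or cannabis replicate 5 (range 0 to 1). Of 135 alternative values of the 9 totals, 116 kept direction and side of the threshold and 19, in 6 genes, changed sign. Of 102 for named sites 80 kept both and 22 changed sign, and of 195 for other pathway genes 178 kept both, 13 changed sign and 4, all of Ddc, lost P under 0.01. Of 49 for the share of the most-read site 41 kept both and 8, in 4 genes, changed sign. The cause was not tested.

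The replicate block leaves air control replicate 4 and cannabis replicate 5, which have no same-numbered partner, out of the group difference. Its values thus rest on replicates 1, 2 and 3 of each group. With the replicate block, log2 fold changes that changed sign were -0.47 for Hdc, -0.092 for Hrh3, -0.00055 for Htr4, -0.042 for Maoa, -0.53 for Hdc site 1, -0.19 for Hnmt site 1, 0.21 for Htr1b, -0.077 for Htr5a and -0.37 for Qdpr. The block changed no call but that of Ddc, and gave 0.3 for S100a10. With equal totals they were -0.0061 for Hdc, -0.015 for Maoa, -0.01 for Hdc site 1 and -0.005 for Maoa site 2. With edgeR they were -0.083 for Hdc, -0.07 for Maoa, -0.015 for Hdc site 1 and -0.11 for Qdpr. With DESeq2 they were -0.087 for Hdc, -0.007 for Htr4, -0.057 for Maoa, -0.037 for Hdc site 1, -0.0083 for Maoa site 2 and -0.11 for Qdpr.

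With single libraries left out, values that changed sign ranged from -0.29 to 0.19 for Hdc, -0.0017 to 0.66 for Htr1a, -0.014 to 0.29 for Htr2c, -0.38 to 0.34 for Maoa, -0.33 to 0.23 for Hdc site 1, -0.22 to 0.33 for Hnmt site 1, -0.24 to 0.023 for Htr4 site 1, -0.49 to 0.34 for Maoa site 1, -0.15 to 0.18 for Maoa site 2, -0.94 to 0.02 for Htr1b, -0.01 to 0.6 for Htr5a, -0.11 to 0.6 for Htr6, -0.34 to 0.17 for Slc29a4 and -0.45 to 0.31 for Qdpr. Differences in the share of the most-read site that changed sign ranged from -2.34 to 2.66 percentage points for Hdc, -5.59 to 4.41 for Hrh1, -7.48 to 0.688 for Hnmt and -6.17 to 0.166 for Maoa. Depth limits the sites: 3 reads are up to 5.96 normalized counts, more than the mean of any Htr2c site.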
